A study of Mus musculus with 18 samples.

Results

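Circular RNAs (circRNAs) from 5 host genes, Rmdn2, Erbin, Alg12, Tmem56 and Ttc39c, stand among the 10 most abundant of the 474 circRNAs that the deposited table lists for mouse liver. They were chosen by their mean CPM (back-splice reads scaled to the size of the library): 5 rows, 1 per gene, of the 10 with the highest mean over all 18 libraries. Their place near the top of the table is a description and not a finding. Livers came from male C57BL/6 mice bought at 6 weeks of age, with 6 sequenced mice in each of 3 groups. Control mice had corn oil by injection and double distilled water by mouth. Cirrhosis mice had the same water, and their corn oil carried 10% CCl4 (carbon tetrachloride, which injures hepatocytes). Cirrhosis-PTH mice were injected with 10% CCl4 and were given 0.25 mg per g of the traditional Chinese medicine Pien Tze Huang (PTH) by mouth daily. Every group was injected with 10 µl per g, 2 times weekly, for 12 weeks. The labels describe more mice than were sequenced and do not say how those 18 were picked.

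A circRNA forms when the spliceosome splices the end of an exon to the beginning of that exon or of one upstream of it. The closed circle has no free end for exonucleases and usually outlives the linear messenger of the same gene, so it can accumulate in tissue with slow cell turnover such as liver. The 5 hosts belong to no common pathway. Rmdn2 encodes a member of the family of regulators of microtubule dynamics. Erbin encodes a scaffold with leucine-rich repeats and a PDZ domain that binds the receptor ERBB2. Alg12 encodes a mannosyltransferase of the endoplasmic reticulum that builds the lipid-linked sugar used in N-glycosylation. Tmem56, also called Tlcd4, encodes a membrane protein with a TLC domain, and Ttc39c a protein with tetratricopeptide repeats. The deposited values are of back-splice junctions only, so the linear messengers of these genes were not analysed here.

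All 5 circles had both ends at annotated exon ends. They skipped the first exon of the host transcript, and no circle reached the last exon. The deposited values mark only the ends, so the exons between them are taken from the annotation here and below. Whether a circle holds each of these exons was not tested. The coordinates below are on GRCm38, 1-based, and exons are numbered along 1 GENCODE M21 transcript per gene. The Rmdn2 circle (ENSMUSG00000036368.8, chromosome 17, 79650302 to 79659473, plus strand) held coding exons 3 to 5 of 11. The Erbin circle (ENSMUSG00000021709.14, chromosome 13, 103884143 to 103889285, minus strand) held exons 2 to 4 of 27, with 57 bases of 5' UTR and 307 coding bases. The Alg12 circle (ENSMUSG00000035845.17, chromosome 15, 88811297 to 88812159, minus strand) held coding exons 6 to 7 of 10. The Tmem56 circle (ENSMUSG00000028132.15, chromosome 3, 121228310 to 121235764, minus strand) held exons 2 to 6 of 8, with 106 bases of 5' UTR and 438 coding bases. The Ttc39c circle (ENSMUSG00000024424.15, plus strand) held coding exons 9 to 10 of 14, and its position is given with the other circles of that gene.

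The back-splice junction is the stretch that a linear messenger lacks and that the counted reads cross. The junctions of the Rmdn2 and Alg12 circles, which are coding throughout, are shown 5′ to 3′, read from the reference transcript sequences, with the last 15 bases of the last exon in lower case and the first 15 bases of the first exon in capitals.
Rmdn2 junction: acactgccatctgtgGTATATTACAGCTAA
Alg12 junction: aggctgcacctatatGGCTGACGGTTGCTG
The Erbin and Tmem56 circles each carry the start codon of the host messenger, and the first 30 coding bases of each are shown with that codon in capitals.
Erbin start: ATGactacaaaacgaagtttgtttgtgcgg
Tmem56 start: ATGgaggcgagtaccaaggcggccgtcggc
Of the 435 circRNAs of the table whose ends fall in 1 transcript, 56 (12.9%) held an annotated start codon. Read from that codon across the back-splice junction, the Erbin frame met a stop after 107 codons and the Tmem56 frame after 157. The Rmdn2 and Ttc39c circles were multiples of 3 long, 339 and 234 bp, as were 34.7% of the 435. Their host reading frame ran through the junction with no stop, over 113 and 78 codons a round. The same held for all 129 all-coding circles whose length is a multiple of 3 and whose frame has no stop before the junction. That count was nearly fixed in advance, as only the codon over the junction could hold a stop. These are properties of the annotated sequence, and translation was not measured.

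**Figure D1:**
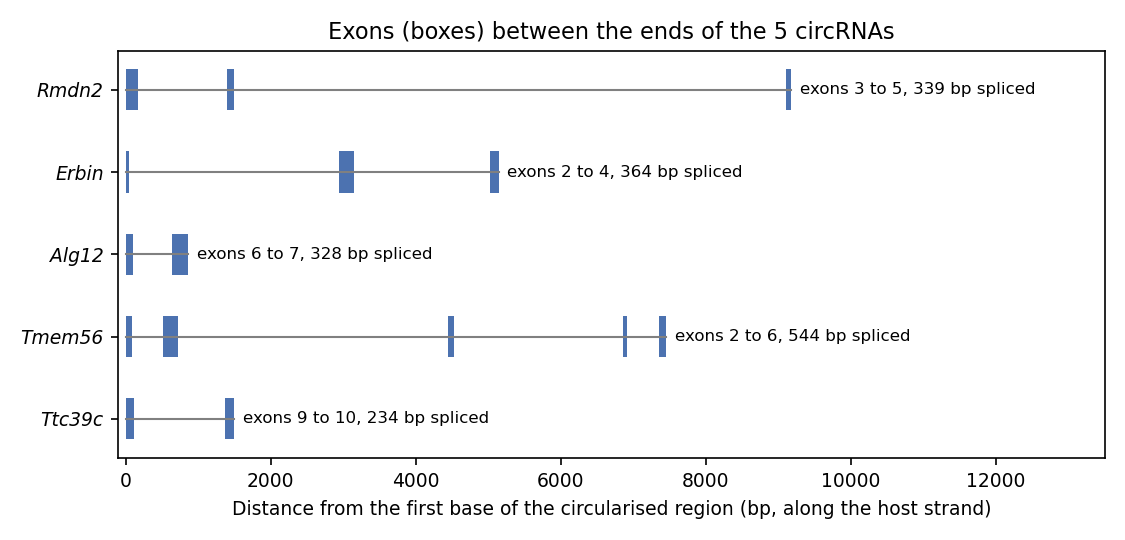
Annotated exons (boxes) and the introns between them (lines) for the 5 circRNAs, to scale, as distance in bp from the first base of the circularised region along the host strand. Tmem56 has the most exons and the longest spliced circle, 5 exons and 544 bp, while Alg12 and Ttc39c have 2 exons each.

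Annotated spliced lengths lay between 234 bp (Ttc39c) and 544 bp (Tmem56). The median over the 435 circRNAs was 306 bp, with quartiles of 247 and 395 bp. Exon numbers were 2 for Alg12 and Ttc39c, 3 for Rmdn2 and Erbin and 5 for Tmem56, against a median of 3. The introns upstream of the circles split the members. The intron upstream of the circle was 28529 bp long for Rmdn2, 30960 bp for Erbin and 26935 bp for Tmem56, all above the upper quartile of 25880 bp over the 435. For Alg12 and Ttc39c it was 2294 and 3573 bp, near or under the lower quartile of 3453 bp. The downstream introns did not split them in this way. They were 7397 bp for Rmdn2, 15244 bp for Erbin, 4575 bp for Alg12, 16938 bp for Tmem56 and 2840 bp for Ttc39c. Of these only that of Ttc39c lay outside the quartiles of 3513 and 21570 bp. The Alg12 circle was also the most GC-rich of the members, 55.5%, and the Erbin circle the poorest, 37.1%, which lie outside the range of 39.4% to 53.7% that holds all but the highest and lowest 10% of the 435. The members thus shared no length, intron size or base composition.

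Coverage of the listed circRNAs was low and uneven. Each library held 794 to 8431 back-splice reads of them, recovered from the CPM steps, and 1 read was worth 0.0343 to 0.370 CPM. Back-splice reads of unlisted circRNAs are not in these counts. The summed CPM of all listed circRNAs ran from 163 to 413 for Control, 207 to 435 for Cirrhosis and 99.5 to 330.4 for Cirrhosis-PTH. Of 18 hepatocyte marker genes 6 had a listed circRNA, among them Egfr and Abcb11. Their summed levels were 1.18 to 6.14 CPM in Control, 1.29 to 6.28 with CCl4 and 1.34 to 7.36 with CCl4 and Pien Tze Huang. Defining hepatocyte genes such as Alb and Ttr had no row in the table, so the listed marker circRNAs do not check the tissue.

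A back-splice read marks 1 junction per circle whatever its length, so CPM can be set side by side between circRNAs. Rmdn2 had the highest mean of the 5 over 18 libraries, 6.70 CPM (rank 2 of 474, 852 reads). Erbin followed at 3.28 CPM (rank 4, 442 reads), Alg12 at 3.27 CPM (rank 5, 505 reads), Tmem56 at 2.99 CPM (rank 6, 389 reads) and Ttc39c at 2.88 CPM (rank 8, 397 reads). The rows around the limit of the rule were Ogdh at rank 10 with 2.58 CPM and Nfix at rank 11 with 2.41 CPM. These levels chose the members, so their order is a description. Rmdn2 lay above Erbin in 15 of 18 libraries, by 3.42 ± 2.96 CPM (mean ± SD of the differences within libraries). Erbin exceeded Alg12 in 7 of 18 libraries, with a mean difference of 0.0081 ± 2.04 CPM. Alg12 exceeded Tmem56 in 11 of 18, by 0.284 ± 1.84 CPM, and Tmem56 exceeded Ttc39c in 10 of 18, by 0.111 ± 2.80 CPM. The SD of the last 3 differences was larger than the difference.

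The ranks were not equal in all groups. Rmdn2 was the most abundant of all circRNAs in 6 libraries and among the first 10 in 17, falling to rank 17 in Cirrhosis-PTH 4. By group means it ranked 1 in both Control and Cirrhosis, and 3 with Pien Tze Huang. Erbin ranked 12 by its mean in Control, Tmem56 ranked 19 in Cirrhosis-PTH and Ttc39c ranked 27 in Cirrhosis, so each of these fell out of the first 10 in 1 group. Alg12 ranked 5, 10 and 6 in Control, Cirrhosis and Cirrhosis-PTH. Of all recovered reads the 5 together took 7.23 ± 1.07% (mean ± SD, n = 6) in the Control livers. Their joint share was 6.30 ± 1.13% with CCl4 alone and 7.02 ± 1.01% with CCl4 and Pien Tze Huang.

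The Rmdn2 circRNA was found in all 18 libraries. Its lowest, median and highest values were 3.65, 6.40 and 12.7 CPM in Control, 3.75, 8.54 and 12.3 CPM in Cirrhosis and 1.04, 5.10 and 8.58 CPM in Cirrhosis-PTH. The group means were 7.003 ± 3.18, 8.09 ± 3.79 and 5.01 ± 2.43 CPM in that order (mean ± SD, n = 6). The Cirrhosis libraries fell apart into 3 between 10.5 and 12.3 CPM and 3 between 3.75 and 6.56 CPM, and the ranges of all 3 groups overlapped. The Rmdn2 level moved with the total. Over the 18 libraries it had a Spearman rho of 0.81 with the summed CPM of the other 473 circRNAs, against 0.42 to 0.53 for the other members. Both axes share the library's scaling, so this is a description. Its share of recovered reads was 2.702 ± 0.703% in the Control livers, 2.36 ± 0.554% with CCl4 and 1.97 ± 0.717% with CCl4 and Pien Tze Huang.

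**Figure D2:**
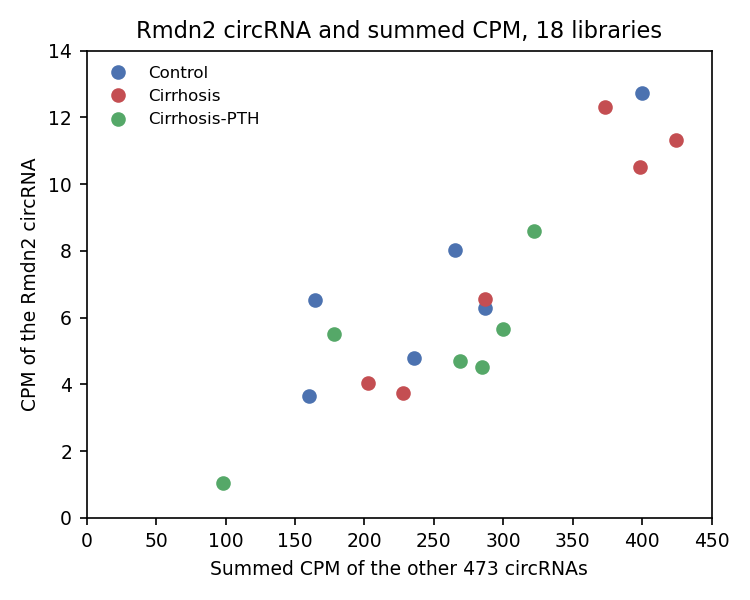
CPM of the Rmdn2 circRNA against the summed CPM of the other 473 circRNAs, with 1 point per library coloured by group. The libraries with Rmdn2 above 10 CPM, Control 2 and Cirrhosis 4, 5 and 6, are the ones with the highest sums, and Cirrhosis-PTH 4 is lowest on both axes.

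The Erbin circRNA was higher on average with CCl4, but its groups overlapped. Its lowest, median and highest values were 0.739, 2.05 and 4.44 CPM in Control, 1.93, 3.81 and 7.12 CPM in Cirrhosis and 1.19, 2.77 and 6.61 CPM in Cirrhosis-PTH. The means were 2.13 ± 1.29, 4.30 ± 2.36 and 3.41 ± 2.05 CPM (n = 6 each). In Cirrhosis 3 libraries lay above every Control library and none below them. The lowest Control value, in Control 1, rests on 2 reads.

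The Alg12 circRNA had the closest group means of the 5. Its lowest, median and highest values were 2.11, 2.58 and 7.10 CPM in Control, 1.42, 3.05 and 4.93 CPM in Cirrhosis and 0.820, 3.25 and 5.24 CPM in Cirrhosis-PTH. Its means were 3.35 ± 1.91, 3.11 ± 1.12 and 3.36 ± 1.52 CPM (n = 6 each). Control 2 stood far above the other Control libraries, and without it the Control mean was 2.60 CPM.

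In CPM the Tmem56 circRNA had the widest spread in Cirrhosis and the narrowest in Cirrhosis-PTH. Its lowest, median and highest values were 1.73, 3.59 and 5.92 CPM in Control, 0.129, 3.64 and 6.94 CPM in Cirrhosis and 1.28, 1.66 and 2.24 CPM in Cirrhosis-PTH. The means were 3.53 ± 1.48, 3.74 ± 2.78 and 1.69 ± 0.345 CPM (n = 6 each). The Cirrhosis minimum, in Cirrhosis 3, was 1 read. All 6 Cirrhosis-PTH libraries lay below the mean CPM of Control and below that of Cirrhosis, and 3 of them lay below every Control library in CPM. The SD in Cirrhosis-PTH was smaller than the counting SD of 0.437 CPM, the spread that read counts of this size give alone. In the other 14 of the 15 combinations of member and group the SD exceeded the counting SD.

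The Ttc39c circRNA of exons 9 to 10 ranged from 0 to 6.04 CPM over the libraries. Its SD was 74.5% of the mean for Control, 76.0% for Cirrhosis and 47.6% for Cirrhosis-PTH. Its lowest, median and highest values were 0, 3.70 and 4.80 CPM in Control, 0.184, 1.90 and 3.87 CPM in Cirrhosis and 1.04, 3.79 and 6.04 CPM in Cirrhosis-PTH. The means were 2.84 ± 2.12, 1.98 ± 1.503 and 3.81 ± 1.81 CPM (n = 6 each). Control 8 had 0 of 1923 recovered reads, which allows a share of up to 0.156% (counting error only), and Control 7 had 4 reads. Control 8 had the most recovered reads of its group, and Control 7 had 1679. Cirrhosis 6 had 1 read. Cirrhosis-PTH had 3 libraries above every Cirrhosis library.

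**Figure D3:**
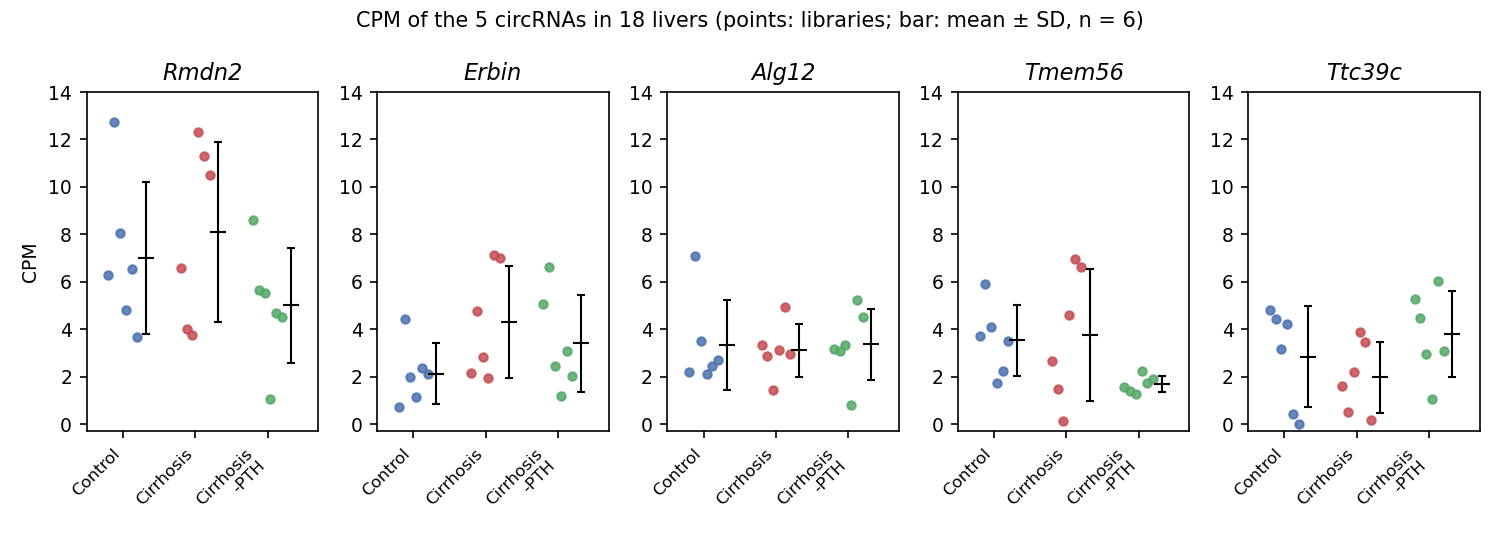
CPM of the 5 circRNAs (1 panel per host gene) in the 3 groups, with 1 point per library and the mean ± SD (n = 6) beside the points. Every member's groups overlap, and Tmem56 in Cirrhosis-PTH is the tightest group in CPM, between 1.28 and 2.24 CPM.

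The first comparison, Cirrhosis against Control, asks about the effect of CCl4. In limma's test on log2(CPM + 0.143), a scale that understates the change of low circRNAs, 0 of the 5 members passed an adjusted p of 0.05 over all 474 circRNAs, and 0% of the 474 did. At an unadjusted p under 0.05 there were 0 members among 58 circRNAs, or 12.2% of the 474. On the recovered reads edgeR called 0 and DESeq2 called 1 circRNA (0.211%), not a member, and their unadjusted p was under 0.05 for 0 members each, against 6.12% and 8.02% of the 474. In limma with median centring it was so for 1 member, Tmem56 (-0.99), against 16.5%, and with the replicate number as block for 1, Ttc39c, against 8.02%. Erbin had the largest difference of the members, 0.98 ± 0.51 on the log2 scale (± SE), with a 95% interval of -0.029 to 1.98 and limma's adjusted p = 0.439. In Cirrhosis 5 of 6 libraries exceeded the mean of Control. The Erbin difference was 0.40 with median centring, 0.64 with scaling to summed CPM, 0.63 in edgeR and 0.48 in DESeq2. Its adjusted p ran from 0.263 to 0.818 over 9 other settings. Rmdn2 differed by 0.16 ± 0.39, Alg12 by -0.05 ± 0.50, Tmem56 by -0.41 ± 0.54 and Ttc39c by -0.16 ± 0.57, with adjusted p values of 0.814 to 0.982 in limma. The sign for Rmdn2 turned when libraries were scaled to their circRNA content (-0.42 with median centring and -0.18 with scaling to summed CPM). That for Tmem56 turned to 0.23 without Cirrhosis 3, its library with 1 read. That for Ttc39c turned in 6 of 12 fits with 1 library left out (-0.88 to 0.28). Its difference was -2.13 with the replicate block (limma adjusted p = 0.430), which kept only shared numbers and so left out Control 7 and 8. The intervals leave room for sizeable differences: that of Ttc39c ran from 0.411-fold to 1.94-fold and that of Tmem56 from 0.361-fold to 1.56-fold.

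The 474 circRNAs had a median log2 difference of 0.12, and 56.1% of them stood higher with CCl4. Median centring rests on the 26 circRNAs found in all 18 libraries, of which 4 are members (all but Ttc39c). It moved these to -0.46 and 28.9%. Relative to the median of all circRNAs Erbin stood at 0.86, Rmdn2 at 0.041, Alg12 at -0.17, Tmem56 at -0.54 and Ttc39c at -0.29. The circRNAs of macrophage markers reached higher sums in Cirrhosis, but the ranges overlapped. Of the 3 rows 0 passed limma's adjusted p, as did 0% of the 474, and both Adgre1 rows had a Control median of 0 CPM. Limma's unadjusted p was under 0.05 for 2 of the 3, higher in Cirrhosis than in Control, against 12.2% of the 474. It was so for 1, lower in Cirrhosis-PTH than in Cirrhosis, against 7.17%. The 3 of Adgre1 and Mertk, the only 2 of 16 marker genes with a row, summed to 0 to 1.02 CPM in Control, 0.184 to 6.76 CPM in Cirrhosis and 0.149 to 1.19 CPM in Cirrhosis-PTH. Their part in the member values was not tested. In bulk liver, fewer cells of a type and less RNA per cell cannot be told apart.

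The second comparison, Cirrhosis-PTH against Cirrhosis, asks about the effect of Pien Tze Huang given with CCl4. Again 0 of the 5 members passed limma's adjusted p of 0.05, as did 0% of the 474. At an unadjusted p under 0.05 there was 1 member, Ttc39c, among 34 circRNAs, or 7.17% of the 474. On the recovered reads edgeR and DESeq2 each called 1 circRNA (0.211%), not a member. Their unadjusted p was under 0.05 for 1 member in edgeR, again Ttc39c, and 0 in DESeq2, against 5.27% and 7.81% of the 474. In limma with median centring and with the replicate block it was so for Ttc39c alone, against 12.7% and 6.75%. Ttc39c was 1.19 ± 0.57 higher on the log2 scale in Cirrhosis-PTH (95% interval 0.071 to 2.31, limma's unadjusted p = 0.0372, adjusted p = 0.624). It lay above the Cirrhosis mean in 5 of 6 libraries. Without Cirrhosis 6, the library with 1 Ttc39c read, the difference was 0.74. It was 1.70 with median centring (limma adjusted p = 0.237) and 1.36 in edgeR (adjusted p = 0.344), and the adjusted p over 9 other settings ran from 0.237 to 0.662.

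Rmdn2 was lower in Cirrhosis-PTH than in Cirrhosis by a log2 difference of -0.74 ± 0.39, with a 95% interval of -1.51 to 0.029 and limma's adjusted p = 0.633. It lay below the Cirrhosis mean in 5 of 6 libraries. Without Cirrhosis-PTH 4, whose summed CPM was the lowest of all libraries, the difference was -0.36. With all libraries it was -0.23 with median centring, -0.31 with scaling to summed CPM, -0.21 in edgeR and -0.34 in DESeq2. Tmem56 lay below the mean CPM of Cirrhosis in 6 of 6 libraries, at a log2 difference of -0.50 ± 0.54 (limma's adjusted p = 0.754). Without Cirrhosis 3, the library with 1 read, it was -1.15, with an adjusted p of 0.565. Median centring brought it to 0.0093. Erbin differed by -0.35 ± 0.51 and Alg12 by 0.01 ± 0.50, with adjusted p values of 0.815 and 0.993 in limma. Erbin's sign turned with both scalings to circRNA content, to 0.17 and 0.079. The median over all 474 was -0.17, with 42.0% higher in Cirrhosis-PTH, and 0.34 with 63.9% higher after median centring.

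The last comparison, Cirrhosis-PTH against Control, sets CCl4 with treatment beside neither. It shares its libraries with the others and is no separate evidence. In limma 0 of the 5 members and 0% of the 474 circRNAs passed, with 0 members among the 25 (5.27%) at an unadjusted p under 0.05. edgeR and DESeq2 called 0. At an unadjusted p under 0.05 there were 0 members in edgeR and 1 in DESeq2, Rmdn2 (unadjusted p = 0.0494), against 4.01% and 5.91% of the 474. In limma it was so for 3 members with median centring, Tmem56, Rmdn2 and Ttc39c, against 5.91%, and for 1 with the replicate block, Tmem56, against 5.70%. Tmem56 differed by -0.92 ± 0.54 (95% interval -1.97 to 0.14), below the mean CPM of Control in 6 of 6 libraries. Ttc39c differed by 1.02 ± 0.57 (-0.093 to 2.14), above the Control mean in 5 of 6, and by 0.31 without Control 8. Erbin differed by 0.63 ± 0.51, Rmdn2 by -0.58 ± 0.39 (-0.20 without Cirrhosis-PTH 4) and Alg12 by -0.04 ± 0.50. Limma's adjusted p was 0.876 for the 4 of largest difference and 0.984 for Alg12. The ranges of the groups overlapped for every member in each of the 3 comparisons, as they did for all but 1, 2 and 2 of the 474 circRNAs (0.211%, 0.422% and 0.422%).

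**Figure D4:**
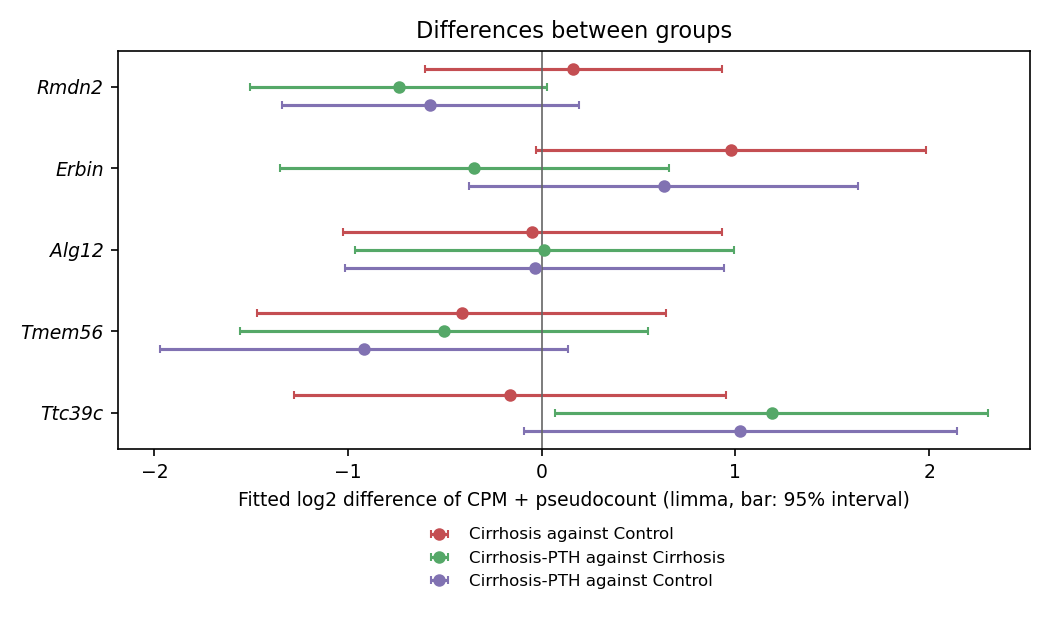
Fitted log2 differences of the 5 circRNAs in the 3 comparisons, from limma on log2(CPM + 0.143), with 95% intervals not adjusted for the number of circRNAs. The interval of Ttc39c in Cirrhosis-PTH against Cirrhosis (0.071 to 2.31) is the only one that leaves out 0.

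Rmdn2, Erbin and Ttc39c gave rise to other listed circRNAs, while Alg12 and Tmem56 had 1 row each. At Rmdn2 a circle of exons 3 to 10 (chromosome 17, 79650302 to 79672573) and another ending at an exon of a different transcript (79650302 to 79681682) begin at the same acceptor, that of exon 3. They had 57 and 31 reads against 852, so exons 3 to 5 made up 90.6% of the host's 940 back-splice reads (exact 95% binomial interval 88.6% to 92.4%, counting error only). Averaged over the libraries of each group it was 85.6 ± 9.93% for Control, 89.9 ± 6.18% for Cirrhosis and 95.8 ± 3.82% for Cirrhosis-PTH (n = 6 each). The 3-to-10 circle stood at 0.802 ± 0.691, 0.587 ± 0.702 and 0.154 ± 0.172 CPM in the same order. At Erbin a row that shares the last exon's end, with the other end at no annotated exon end (chromosome 13, 103884143 to 103897928), had 47 reads against 442. It falls outside the rule and was chosen after its values were seen.

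Ttc39c was the host with circles of comparable level from different parts of the gene. Besides exons 9 to 10 (chromosome 18, 12728620 to 12730117), a circle of exons 2 to 6 (chromosome 18, 12684837 to 12698059) had 224 reads and a circle of exons 2 to 4 (12684837 to 12689887) had 71, both starting at exon 2. Exons 9 to 10 took 57.4% of the host's 692 reads (exact 95% binomial interval 53.6% to 61.1%, counting error only). The mean of the share over the 18 libraries was 55.8 ± 27.6%. The share varied more between livers than at Rmdn2: its lowest, median and highest values were 0%, 47.9% and 68.4% for Control, 2.78%, 69.6% and 81.0% for Cirrhosis, then 51.9%, 74.5% and 86.4% for Cirrhosis-PTH. Exons 9 to 10 had more reads than exons 2 to 6 in 14 of 18 libraries and fewer in 4. Both circles were well covered in some livers, with 15 and 14 reads in Control 2 and 90 and 67 in Cirrhosis-PTH 6. In Control 8, where exons 9 to 10 had 0 reads, exons 2 to 6 had 8. In Cirrhosis 6 the counts were 1 and 26, and in Cirrhosis-PTH 2 they were 19 and 0. The group means of the 2-to-6 circle were 1.82 ± 1.34 CPM in Control, 1.21 ± 1.78 in Cirrhosis (0.490 without Cirrhosis 6) and 1.16 ± 0.863 in Cirrhosis-PTH. Whether the share differs between the groups was not tested.

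**Figure D5:**
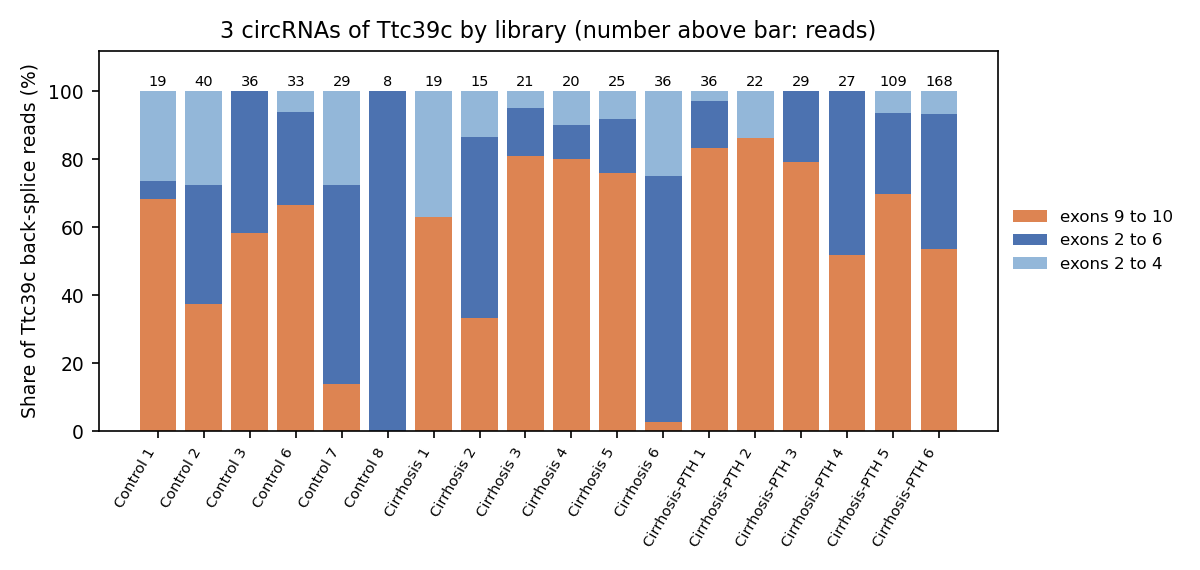
Share (%) of the back-splice reads of Ttc39c from each of its 3 listed circRNAs in every library, with the number of reads above each bar. Exons 9 to 10 range from 0% in Control 8 and 2.78% in Cirrhosis 6 to 86.4% in Cirrhosis-PTH 2.

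The members were also compared with each other and with the 111 circRNAs found in at least 15 libraries by Spearman's rho of CPM over the 18 libraries, as a description. Between members rho ran from -0.09 (Tmem56 and Ttc39c) to 0.63 (Rmdn2 and Tmem56). On shares of the summed CPM, which remove the common scaling, it ran from -0.46 (Tmem56 and Ttc39c) to 0.31 (Rmdn2 and Tmem56). The circRNAs most like Rmdn2 were those of Tmbim6 (rho 0.761, and 0.261 on shares) and Ogdh (0.742 and 0.579). Erbin was most like Gramd1c (0.610 and 0.585) and Rfx7 (0.577 and 0.280). Alg12 was most like Car8 (0.697 and 0.193) and Rnf114 (0.675 and 0.255). Tmem56 was most like Ogdh (0.754 and 0.575), which encodes a subunit of the oxoglutarate dehydrogenase complex, and next Rmdn2 (0.628 and 0.307). Ttc39c was most like Hacl1 (0.642 and 0.452) and Fam160b1 (0.641 and 0.276). The median rho over the circRNAs searched was 0.296 for Rmdn2, 0.162 for Erbin, 0.259 for Alg12, 0.152 for Tmem56 and 0.188 for Ttc39c. The partners are the highest of all those searched on CPM, so lower values on shares follow in part from how they were picked.

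Other genes of the hosts' pathways had few listed circRNAs. Of 38 other N-glycosylation genes 5 had 6 circRNAs, and 0 of the 6 passed limma's adjusted p in any of the 3 comparisons. As 0% of all 474 circRNAs passed it, such counts set no pathway apart. Limma's unadjusted p was under 0.05 for 1 of the 6, lower in Cirrhosis-PTH than in Control, against 5.27% of the 474 in either direction. Of the 6, 3 had a higher fitted value in Cirrhosis than in Control and 3 did not. Alg13 and Alg6 act before and after Alg12 in building the same lipid-linked sugar. In the order Control, Cirrhosis, Cirrhosis-PTH, Alg13 had 0.462 ± 0.460, 0.830 ± 0.418 and 0.622 ± 0.461 CPM (n = 6 each), and Alg6 had 0.164 ± 0.259, 0.589 ± 0.478 and 0.513 ± 0.643 CPM. Rpn1, a subunit of the oligosaccharyltransferase, had 0.389 ± 0.556, 0.281 ± 0.305 and 0.0524 ± 0.0966 CPM. The mannosidase gene Man1a had 2 circRNAs, with means of 0.647, 0.166 and 0.103 CPM and of 0.428, 0.345 and 0.503 CPM. Man2a1, a Golgi mannosidase, had means of 0.779, 1.20 and 0.547 CPM. The 6 had a median log2 difference of 0.044 in Cirrhosis against Control and -0.57 in Cirrhosis-PTH against Cirrhosis. Of 27 genes of ERBB receptors and Erbin partners 2 had a circRNA, Gab1 and Egfr, and neither passed. Limma's unadjusted p was under 0.05 for 1 of the 2, lower in Cirrhosis-PTH than in Cirrhosis, against 7.17% of the 474. Gab1, an adaptor of receptor signalling, had 0.483 ± 0.551, 1.07 ± 0.419 and 0.251 ± 0.184 CPM in Control, Cirrhosis and Cirrhosis-PTH, and Egfr, a receptor of the family, had 1.53 ± 1.65, 1.23 ± 0.818 and 1.34 ± 0.868 CPM. Of 29 genes of the Rmdn family and microtubule regulation 3 had a circRNA, Vapa, Camsap1 and Ckap5, with 0 passing. Limma's unadjusted p was under 0.05 for 1 of the 3, higher in Cirrhosis than in Control, against 12.2% of the 474. It was so for 1, lower in Cirrhosis-PTH than in Cirrhosis, against 7.17%. Vapa, a tether protein of the endoplasmic reticulum, stood at 0.881 ± 0.567, 2.88 ± 2.31 and 0.927 ± 0.570 CPM in the 3 groups. Camsap1, which binds microtubule minus ends, had 0.545 ± 0.665, 0.207 ± 0.289 and 0.677 ± 0.787 CPM, and Ckap5, a microtubule polymerase, had 0.113 ± 0.178, 0.498 ± 0.665 and 0.249 ± 0.212 CPM. Of 37 Ttc39 and other tetratricopeptide genes only Ttc7b had one, at 0.0999 to 0.405 CPM on average. No other gene of 18 with a TLC domain, and none of 26 regulators of circularisation and RNA binding, had a row in the table. Marker genes of stellate cells (0 of 17), liver endothelial cells (0 of 12) and cholangiocytes (0 of 8) had none, and lymphocytes had 1 of 13, Ikzf1.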

How the data were processed

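Back-splice reads of ribosome-depleted liver RNA were deposited by the authors as CPM, 1 column per library and 1 row per circRNA. IDs are from CIRI, per the file headers. The build GRCm38 and the tools Trim Galore, cutadapt 4.2, Bowtie2, Bowtie 1.3.1, StringTie 2.1.5 and HISAT2 2.2.1, with no roles given, come from the submitters' processing notes. No source used here says which total the CPM refers to. Of 5886 values above 0, 100% were whole multiples of 1 read within 0.01, which gave the recovered reads. Listed circRNAs are above 0 in at least 9 libraries. Back-splice reads carry no molecular identifiers, so intervals on shares cover counting error only.

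Ends were matched to GENCODE M21 exons. The table has no strand, which was taken from the host gene. Differences were tested by limma 3.58.1 (trend option, R 4.3.3) on log2(CPM + 0.143), 1 model of 18 libraries, 2-sided, with Benjamini-Hochberg adjustment over 474 circRNAs; the pseudocount is each library's smallest nonzero CPM, as the median of 18, and requiring 6 libraries above 0 removed 0 rows. edgeR 4.0.16 and DESeq2 1.42.0 were run on recovered reads. All were tested on simulated data with changes larger than any member difference in the fit of 18 libraries. Their power for smaller changes was not tested. Other settings were pseudocounts of 0.0714 and 1 CPM, a filter of 15 libraries, median centring, scaling to summed CPM, 2 groups only, the replicate number as block, and each library left out. Named circRNAs were the 5 members, the rows around the rank limit, other rows of the same hosts, the 2 most alike by rho, and rows of the pathway and marker lists. Members and gene lists were chosen with earlier results of these data known. The labels give 6 mice per group and no batch. Python 3.11.15, SciPy 1.17.1 and matplotlib 3.10.9 were used.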

Additional observations from a re-analysis of the deposited data

Results flagged for a closer look

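Among 27 sets of 6 libraries, the 5 members and the 4 further circRNAs of their hosts with both ends at exon ends in each group, 2 had a library far from the other 5 by Dixon's criterion at 95%, which chance meets in about 1 of 20 groups. Control 2 stood at 7.10 CPM for Alg12, and the next Control library at 3.49 CPM. Control 2 also had the highest summed CPM of the Control group, 413. Cirrhosis 6 stood at 4.80 CPM for the Ttc39c circRNA of exons 2 to 6, and the next Cirrhosis library at 0.848 CPM. The same library had 1 read of the Ttc39c circRNA of exons 9 to 10 and the fewest circRNAs detected, 223.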

How the results depend on the processing

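None of the 15 member differences passed an adjusted p of 0.05 under any of 9 other settings (135 values, adjusted p 0.237 or more) or with 1 library left out (180 values, 0.336 or more). The sign was kept in 123 of the 135 and 163 of the 180. For Rmdn2 in Cirrhosis against Control (0.16) the sign turned with median centring (-0.42), scaling to summed CPM (-0.18), the replicate block (-0.38), edgeR (-0.18) and DESeq2 (-0.32). In Cirrhosis-PTH against Cirrhosis it turned for Erbin with median centring (0.17) and scaling to summed CPM (0.079), and for Tmem56 with median centring (0.0093). In Cirrhosis-PTH against Control it turned for Alg12 with scaling to summed CPM (0.0505), the replicate block (0.0746) and edgeR (0.14), and for Ttc39c with the replicate block (-0.10). In both comparisons with Control the replicate block kept 4 shared numbers per group, so its turned signs come from the libraries left out. The cause of the other turns was not tested. With 1 library left out, the sign turned for Alg12 (-0.19 to 0.19, -0.18 to 0.35 and -0.20 to 0.30 in the order Cirrhosis against Control, Cirrhosis-PTH against Cirrhosis, Cirrhosis-PTH against Control), and in Cirrhosis against Control for Tmem56 (-0.71 to 0.23) and Ttc39c (-0.88 to 0.28).

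Of all 474 circRNAs, 0 passed in each comparison. In Cirrhosis against Control 3 passed with the filter of 15 libraries, 2 with median centring and 1 in DESeq2, and 0 to 1 with 1 library left out. In Cirrhosis-PTH against Cirrhosis 1 passed in edgeR and 1 in DESeq2, and 0 to 1 with 1 library left out, while Cirrhosis-PTH against Control gave 0 under each of these. Nothing in the labels says that title numbers pair the mice. After removal of group means, same-numbered libraries of different groups correlated at -0.057 to 0.082, and 4 of 14 pairs matched best with their own number. In Cirrhosis against Control this was 3 of 4, with correlations of 0.014 to 0.082. The fit with the replicate number as block kept only shared numbers, 4, 6 and 4 in the order of the comparisons, and called 0 circRNAs in each. With each number present once per group, the block leaves the fitted difference itself unchanged. Ttc39c stood at 1.19 in both fits of Cirrhosis-PTH against Cirrhosis. Its move from -0.16 to -2.13 in Cirrhosis against Control is thus a change of libraries, as Control 7 and 8 and Cirrhosis 4 and 5 were left out. Libraries held 794 to 8431 recovered reads of the listed circRNAs, and the median SE of a log2 difference over the 474 was 0.694. For the members the SD between livers exceeded the counting SD in 14 of 15 groups. An unadjusted p under 0.05 was met by 1 of the 15 member differences as reported, against 12.2%, 7.17% and 5.27% of the 474 in the 3 comparisons. It was met by 5 with median centring (against 16.5%, 12.7% and 5.91%) and 3 with the replicate block (against 8.02%, 6.75% and 5.70%). The remaining settings gave 0 to 2, and for some of these the share of the 474 was not counted.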
